A study of Trachinotus ovatus with 6 samples.

Results

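In Trachinotus ovatus, the golden pompano, a bony fish of warm seas, genes whose annotated span lies wholly within the longer span of another gene were compared with those longer genes, called hosts here, in ovaries and testes. Members were found from position alone: a gene counted as nested when at least 1 other gene on the same linkage group or sequence covered its whole span and was longer, and its host was the shortest such gene. Of the 22062 genes in the table, 4281 (19.4%) were nested, in 1654 distinct hosts, and 376 genes were both nested and a host. A further 13323 genes overlapped no other gene and serve for comparison. The 3 ovaries (genotype label TOQC) came from females and the 3 testes (genotype label TOQX) from males. Removal of the gonad is the only treatment in the labels, which give no age or strain. These are bulk tissues, in which fewer cells of a type and less RNA per cell cannot be told apart. Levels are in FPKM (fragments per kilobase of gene model, scaled to library size), which allows levels of genes of different length to be compared.

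Nested genes are a common feature of animal genomes. A typical case is a short gene inside an intron of a longer one, on either strand, with its own promoter. Nested genes and hosts may be transcribed independently, and transcription of one can also interfere with that of the other. The table gives each gene a start and an end, but no strand, no exons and no gene name. Whether a nested gene is intronic, lies in antisense orientation, or is a second model of the host's own transcript is therefore not known here. How reads were divided between overlapping models is not known either. The tissue labels could not be checked against marker genes because identifiers carry no names, and no sequence is shown because no genome of this species was used here.

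Most nested genes covered a small part of their host. The rule requires a nested gene to be shorter than its host, so the contrast in span between them follows in part from the rule. The median span, introns included, was 7241 bp for nested genes, 31428.5 bp for hosts and 9018 bp for genes without overlap. A nested gene covered a median of 5.50% of its host (quartiles 1.20% and 24.4%). Most nested genes, 3269, lay inside 1 other gene, 558 inside 2, 336 inside 3 to 9, and 118 inside 10 or more. Hosts were uneven: 1142 held 1 nested gene, 402 held 2 to 5, and the remaining 110 held 2076 nested genes, 48.5% of all. All 31 genes longer than 1000000 bp were hosts, and 1124 nested genes had one of them as host.

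Nested genes were unevenly spread over the 24 linkage groups, which hold 4261 of them. They made up 37.2% of the genes of linkage group 13 (320 of 861), 34.6% of linkage group 16 (293 of 848) and 32.9% of linkage group 6 (367 of 1114), and between 12.2% and 24.9% on the other linkage groups. Shares were also taken without counting genes in hosts longer than 1000000 bp as nested, while keeping them in the total of the group. These shares were 15.7% on linkage group 13, 24.1% on linkage group 16 and 14.7% on linkage group 6. On the other linkage groups they were then between 7.40% and 20.3%, so linkage group 16 kept the highest share.

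At the edge of the rule, 381 nested genes shared an end with their host, and 257 genes that were not nested had at least 90% of their span inside a longer gene. The genes that shared an end were short (median span 1433 bp) and 143 of them were high enough to test. Those just outside had a median span of 13244 bp and 225 of them were tested. On log2(FPKM + 1), the median fold of testis over ovary was 1.26 in the former and 1.33 in the latter. Over all genes, 335 had exactly the same span as another gene. Such genes are not nested in each other, but 238 of them lay inside a longer gene.

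The level of the median nested gene was below that of the median gene without overlap in every library. Over libraries 1, 2 and 3 it stood at 0.245, 0.473 and 0.384 FPKM across the ovaries and at 4.15, 3.54 and 3.97 FPKM across the testes. Genes without overlap had ovary medians of 0.700 ± 0.244 FPKM and testis medians of 6.12 ± 0.563 FPKM (SD, n = 3 each). Hosts had 0.716 ± 0.204 and 4.58 ± 0.258 FPKM (SD, n = 3 each). Both sets are measured in the same libraries, and the order held within each of them. In testis the ranges of nested genes and genes without overlap did not overlap, while in ovary they did. Genes at 1 FPKM or more made up 40.9% ± 3.66 of nested genes in ovary and 70.6% ± 1.32 in testis (SD, n = 3 each), against 45.7% ± 4.27 and 80.8% ± 1.64 of genes without overlap.

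**Figure D1:**
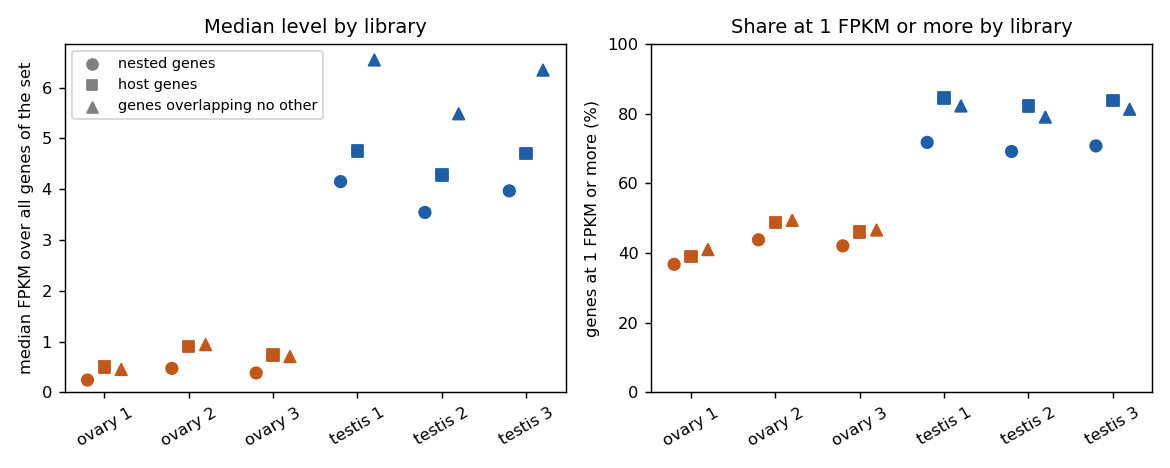
Median FPKM (left) and percentage of genes at 1 FPKM or more (right) in each of the 3 ovaries (orange) and 3 testes (blue), for nested genes (circles), hosts (squares) and genes that overlap no other gene (triangles). Nested genes have the lowest median and the lowest share of the 3 sets in each library.

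In relative terms the gap was widest among short genes. Among genes of up to 1500 bp, the median in testis was 0.0636 ± 0.00856 FPKM for 682 nested genes and 0.404 ± 0.0501 FPKM for 619 genes without overlap (SD, n = 3 each). Among genes of over 1500 and up to 5000 bp it was 2.65 ± 0.197 FPKM for nested genes and 4.97 ± 0.634 FPKM for the others. Among genes of over 5000 and up to 15000 bp it was 6.67 ± 0.475 FPKM for nested genes and 7.92 ± 0.489 FPKM for genes without overlap. Among longer genes it was 5.55 ± 0.422 and 5.96 ± 0.489 FPKM (SD, n = 3 each). In each of these classes the nested median was the lower one in every testis, with 5.92 against 6.27, 5.09 against 5.40 and 5.64 against 6.22 FPKM among the longest genes. In ovary the longest nested genes had the higher median in every library, at 0.662 ± 0.202 against 0.556 ± 0.184 FPKM (SD, n = 3 each).

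Of the 271 genes listed at 0 in all 6 libraries, 173 were nested and 19 overlapped no other gene. Many genes at 0 sat in stacks, loci where spans of up to 5000 bp pile up on one another. There were 9 loci with 10 or more such genes, a definition chosen after the values were seen. They held 279 genes, 207 of them nested; 160 were listed at 0 in every library and 5 reached the level needed for testing. The highest stack lay on linkage group 6 (26136092 to 26137336), where 106 models with spans of 393 to 1245 bp overlapped and 92 were listed at 0 throughout. It also holds the longest chain of spans within spans, 21 genes deep, of which 16 were listed at 0 in all libraries.

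Within that stack the signal sat in few models. SCSFRI_TO_T_00082154, nested in 94 other models, had 7.15, 9.91 and 6.65 FPKM in testes 1, 2 and 3 and gave 0 in every ovary (adjusted p from limma = 1.5e-06). It took 68.5% of the level summed over the stack in testis. SCSFRI_TO_T_00140498, nested in 64 models, had 2.97, 3.21 and 3.56 FPKM in the testes and 0.00193, 0.0527 and 0 FPKM in the ovaries, a log2 fold change of 2.06 (limma, SE 0.10, adjusted p = 1.3e-06). Both models reached the level needed for testing in the testes alone, so these p-values add no support for their direction. No model of this stack reached 0.1 FPKM in any ovary. A stack of 18 models on linkage group 10 (27360148 to 27361387) held 15 listed at 0 throughout. Its model with the highest level, SCSFRI_TO_T_00078325, was not itself nested and took 97.1% of the summed level in testis. The same stack holds one of the 16 nested genes that are shorter than their host by a single base, SCSFRI_TO_T_00018561, which was listed at 0 in all libraries, as was its host.

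For the comparison of tissues, a gene needed 1 FPKM in 3 or more libraries, and such genes were tested with limma, a linear model with moderated variances fitted across all 17206 of them, and a gene passed at a Benjamini-Hochberg adjusted p under 0.05. Of the 4281 nested genes, 2924 (68.3%) were tested, against 78.0% of all genes. Testis was the higher tissue for 1949 of them and ovary for 443. Over all tested genes 81.6% passed, 68.2% higher in testis and 13.4% higher in ovary, so the nested genes' shares of 66.7% and 15.2% were close to the background. In 2461 nested genes no ovary overlapped a testis, and among all tested genes the tissues did not overlap in 83.9%. Of the 1654 hosts, 1352 were tested, and testis was higher for 948 (70.1%) and ovary for 170 (12.6%). Median log2 fold changes were 1.34 for nested genes, 1.36 for hosts, 1.498 for genes without overlap and 1.43 for all tested genes. How libraries are put on one scale moves them together: the median of all genes was 2.09 after rescaling to TPM, 1.17 after median ratio scaling and 0.14 after quantile normalization, with 1.99, 1.08 and 0.06 for nested genes. For hosts the median was -0.07 after quantile normalization, and the share of calls higher in testis fell from 81.5% to 51.0% for nested genes and from 84.8% to 46.4% for hosts.

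Long genes were less often higher in ovary, among nested genes and among genes without overlap. Among tested nested genes of over 1500 and up to 5000 bp, 147 of 566 were higher in ovary (26.0%), against 22.4% of genes without overlap of that span. Above 15000 bp it was 79 of 993 (7.96%) against 5.46%. The difference between the sets was not tested.

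Nested genes held a larger part of the summed FPKM in ovary than in testis. Their share was 34.4%, 28.9% and 31.8% across the ovaries and 17.8%, 21.0% and 18.6% across the testes, with no overlap between the tissues. The 5 highest nested genes of each library alone took 16.0% ± 3.94 in ovary and 4.99% ± 1.13 in testis (SD, n = 3 each). Most of the difference between the tissues thus lay in these few genes and not in nested genes as a class. Genes that were hosts and not nested went the other way, with 12.9% ± 1.61 in ovary and 18.6% ± 0.795 in testis (SD, n = 3 each).

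The same 5 nested genes had the highest mean in ovary and in testis, and in each of these pairs the nested gene stood far above its host. They were chosen for their level, so their place above the host follows largely from the choice. SCSFRI_TO_T_00000774 on linkage group 16 (14746782 to 14800512) measured 46785, 9122 and 40010 FPKM in the ovaries and 2660, 5819 and 4017 FPKM in the testes. Its host SCSFRI_TO_T_00144185 (14703755 to 14800512), which shares its right end, had 140, 1048 and 19.4 FPKM in the ovaries. Ovary 2 was thus the lowest ovary for the nested gene and the highest for the host. The nested gene was called higher in ovary (log2 fold change -2.70) and lost the call after quantile normalization (adjusted p from limma = 0.34). SCSFRI_TO_T_00025873 on linkage group 9 (14839898 to 14840206) and its host SCSFRI_TO_T_00000778, only 3 bases longer, differed mainly in level: the nested gene had 35673, 21689 and 30481 FPKM in the ovaries and the host 156, 84.7 and 109 FPKM, while their log2 fold changes were -3.35 (SE 0.25) and -3.34 (SE 0.27). The test of the difference between the folds gave -0.01 (limma, SE 0.25, adjusted p = 0.98), which allows differences of the order of that error. The likeness of the folds depends on the scaling: after quantile normalization they were -0.91 and -3.68.

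SCSFRI_TO_T_00135691 on linkage group 12 (19037223 to 19037468) measured 20606, 14052 and 20565 FPKM in the ovaries and 1751, 3894 and 2327 FPKM in the testes. Its host SCSFRI_TO_T_00125906, 60 bases longer, had 2164, 1260 and 1920 FPKM in the ovaries and 12.8, 309 and 13.7 FPKM in the testes, where testis 2 stood far above the others. The nested gene's log2 fold change of -2.85 became -0.52 after quantile normalization, where it did not pass (adjusted p from limma = 0.17). The other 2 genes, SCSFRI_TO_T_00039028 (17958283 to 18220829) and SCSFRI_TO_T_00038882 (18104176 to 18220858), lie on linkage group 13 inside the same host. That host, SCSFRI_TO_T_00038894 (17958274 to 18220858), exceeds the former by 38 bases. It had 237 FPKM in ovary 1, 0.08 FPKM in ovary 2 and 0 in ovary 3, and 11.3, 7.80 and 12.8 FPKM in the testes. The resulting log2 fold change was 0.85 (limma, SE 1.90, adjusted p = 0.69) and 3.46 without ovary 1 (limma adjusted p = 8e-06), so this library decides the call. SCSFRI_TO_T_00039028 had 31030, 16580 and 15081 FPKM in the same ovaries. Both nested genes were higher in ovary as deposited (log2 fold changes of -1.49 and -1.26) and turned direction after quantile normalization (0.68 and 0.73).

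The nested genes with the largest changes toward ovary were short and abundant there. SCSFRI_TO_T_00074868 on linkage group 16 (5275364 to 5277319) measured 3546, 4055 and 3482 FPKM in the ovaries and 5.46, 0.281 and 1.89 FPKM in the testes, a log2 fold change of -10.32 (limma, SE 0.51, adjusted p = 1.3e-06). Its host, SCSFRI_TO_T_00074732, is 937582 bp long, holds 17 nested genes and stayed under 1 FPKM in every library, with 0.383 to 0.56 FPKM in the testes. SCSFRI_TO_T_00107669 on linkage group 9 (6647714 to 6650634) measured 2123, 2255 and 2089 FPKM in the ovaries and 3.7, 0.0683 and 1.09 FPKM in the testes (log2 fold change -9.94, SE 0.48, adjusted p from limma = 1.3e-06). Its host SCSFRI_TO_T_00107599, which ends at 6650635, had 72.4, 84.4 and 73.8 FPKM in the ovaries and 0.947 to 1.58 FPKM in the testes, a log2 fold change of -5.08. In both nested genes no ovary came near a testis.

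The next 2 lay in hosts that were also higher in ovary. SCSFRI_TO_T_00107974 on linkage group 8 (12946791 to 12948572) measured 4243, 2818 and 3078 FPKM in the ovaries and 8.3, 2.43 and 3.45 FPKM in the testes. The resulting log2 fold change was -9.32, against -3.12 for its host SCSFRI_TO_T_00115721. SCSFRI_TO_T_00072767 on linkage group 23 (14004454 to 14006254) measured 1392, 1906 and 1676 FPKM in the ovaries and 5.27, 0.585 and 0.907 FPKM in the testes, with -9.27 against -5.91 for its host SCSFRI_TO_T_00072745. The fold of the nested gene was the larger in each pair, with differences of -6.20 (limma, SE 0.33, adjusted p = 3.5e-06) and -3.36 (limma, SE 0.41, adjusted p = 0.00019). Both nested genes were named for the size of their fold. A smaller fold in the host was thus likely from the ranking, and these tests add no support. These folds depend on the pseudocount of 1 where testis values lie near it.

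Toward testis, the leading nested genes were nearly silent in ovary. SCSFRI_TO_T_00048955 on linkage group 18 (18416900 to 18418350) measured 647, 727 and 915 FPKM in the testes and gave 0 in every ovary (adjusted p from limma = 4.4e-07). Its host SCSFRI_TO_T_00048949 had 16.8, 35.8 and 35 FPKM in the ovaries and 51.1, 37.5 and 34.9 FPKM in the testes and did not pass (log2 fold change 0.54, SE 0.33, adjusted p from limma = 0.16). After rescaling to TPM this host did pass, higher in testis (1.11, limma adjusted p = 0.024). The host is 482049 bp long and holds 31 nested genes. SCSFRI_TO_T_00085678 on linkage group 3 (35176229 to 35178533) measured 171, 474 and 270 FPKM in the testes and 0.0398, 0.199 and 0.0381 FPKM in the ovaries (log2 fold change 8.01, SE 0.36, adjusted p from limma = 1.3e-06). Its host SCSFRI_TO_T_00085451, which starts at 35176224, had 11.3, 34 and 16.4 FPKM in the testes, with testis 2 highest in both genes. SCSFRI_TO_T_00048955 and SCSFRI_TO_T_00085678 reached the level needed for testing in the testes alone, so their p-values add no support for the direction.

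The other 3 testis genes lay on linkage groups 5, 6 and 3. SCSFRI_TO_T_00042985 (15284213 to 15293968) measured 132, 396 and 205 FPKM in the testes against 0.0261 to 0.82 FPKM in the ovaries. SCSFRI_TO_T_00025990 (5747864 to 5752490) measured 95.5, 343 and 162 FPKM against 0.157 to 0.181 FPKM. SCSFRI_TO_T_00037114 (32686385 to 32688402) measured 87.9, 211 and 157 FPKM and was listed at 0 in the ovaries. Testis 2 was the highest in each of these 3 and testis 1 the lowest. Their hosts were higher in testis as well, with log2 fold changes of 4.26, 2.60 and 2.11. The size of these folds depends on the pseudocount and the scaling: that of SCSFRI_TO_T_00036866, the host of SCSFRI_TO_T_00037114, was 2.11 with a pseudocount of 1, 4.40 with 0.1 and 0.54 after quantile normalization.

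Over all pairs, nested genes and hosts shared tissue direction somewhat more often than neighbours that do not overlap, and their fold changes were weakly correlated. The reference was each gene of the table paired with the nearest gene whose span did not overlap it, 15570 pairs. Both genes were tested in 2509 nested-host pairs, with 1029 distinct hosts, and in 9961 reference pairs. Both passed the threshold in 1761 nested-host pairs, of which 1331 were higher in testis together, 79 higher in ovary together and 351 opposite. Opposite calls made up 19.9% of these, against 25.7% of reference pairs with both genes called. Pearson's r of the log2 fold changes across pairs was 0.25 and Spearman's rho 0.20, against 0.10 and 0.11 in reference pairs. Taking the same nested genes with their own nearest non-overlapping gene, r was 0.16 and rho 0.18 over 2379 pairs, and 25.8% of called pairs were opposite. By rank, the nested-host value of 0.20 was thus close to that of the same genes with their neighbours. These are descriptions with no test: pairs share libraries, hosts, position and possibly reads. With every alternative scaling, filter and left-out library, r stayed higher (0.21 to 0.31, against 0.09 to 0.14) and the opposite share lower than in reference pairs of the same setting. Where the shorter gene exceeded 15000 bp, opposite shares were alike, at 13.5% in nested-host and 13.6% in reference pairs. In the shorter classes they were 21.6% against 25.2% (over 5000 bp), 29.4% against 33.5% (over 1500 bp) and 17.98% against 25.6%. Hosts were longer than the longer genes of reference pairs (medians 136340 and 16323 bp), and long genes were less often higher in ovary. The part of span in these shares was not tested.

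**Figure D2:**
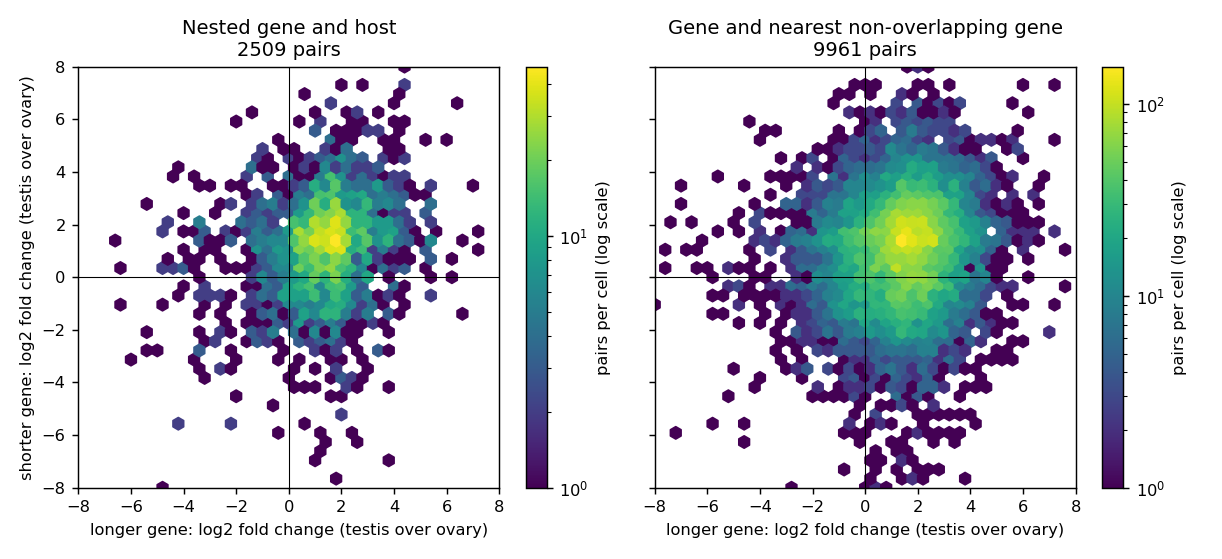
Log2 fold change (testis over ovary, log2(FPKM + 1) scale) of the longer gene (x axis) and the shorter gene (y axis) in 2509 nested-host pairs and 9961 pairs of nearest non-overlapping genes, coloured by the number of pairs per cell on a log scale. Most pairs lie in the quadrant where both genes are higher in testis, and 11 and 48 pairs lie outside the axes.

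The correlation was higher where the nested gene covers more than 50% of its host. It was 0.20 for nested genes that span at most 1% of the host (479 pairs), 0.20 for 1 to 10% (1013 pairs) and 0.21 for 10 to 50% (731 pairs), then 0.56 for 50 to 90% (235 pairs) and 0.63 above 90% (51 pairs). In reference pairs of like relative length it was 0.34 in the lowest class, which has only 44 pairs, and then 0.08, 0.08, 0.13 and 0.20. A crowded host enters many pairs. In hosts of more than 5 nested genes r was 0.11 (1223 pairs), near the 0.10 of all reference pairs. By host span r was 0.36 up to 50000 bp, 0.28 up to 200000 bp, 0.07 up to 1000000 bp and 0.15 above. Among hosts of a single nested gene, r was 0.24 for relative spans of up to 10% (97 pairs), 0.25 for 10 to 50% (325 pairs) and 0.56 above 50% (218 pairs). Above 50%, r was 0.49 to 0.62 under all scalings, filters and left-out libraries, and 0.15 to 0.25 at or below it.

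**Figure D3:**
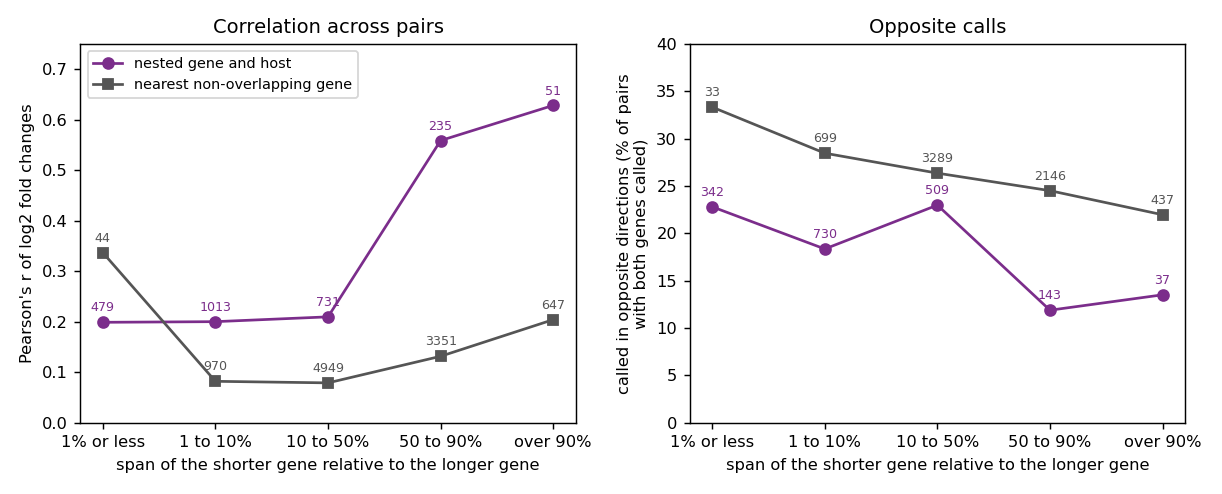
Pearson's r of log2 fold changes (left) and percentage of pairs called in opposite directions among pairs with both genes called (right), by the span of the shorter gene relative to the longer one, for nested-host pairs (purple circles) and nearest non-overlapping genes (grey squares). Numbers beside points are pairs. In nested-host pairs r rises from 0.20 in the lowest class to 0.63 in the highest.

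Levels of the paired genes were weakly correlated. Across pairs with both genes tested, the mean log2(FPKM + 1) of nested gene and host correlated with r = 0.22 in ovary and 0.07 in testis, against 0.11 and 0.08 in reference pairs. The same nested genes with their nearest non-overlapping gene gave 0.14 in ovary and 0.12 in testis. In nested-host pairs above 90% relative span r was 0.61 in ovary and 0.25 in testis. Departures of a library from its tissue mean also ran together most in these near-coincident pairs, with r of 0.35 in ovary and 0.50 in testis, against 0.12 and 0.17 in all nested-host pairs and 0.11 and 0.08 in reference pairs. The part of divided reads in these correlations was not tested.

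The nested gene stood above its host in a minority of all pairs, and in close to even shares over all pairs with both genes tested. Pairs with both genes at 0 count as not above. Its share was 41.3% ± 0.871 of the 4281 pairs in ovary and 42.6% ± 0.287 in testis (SD, n = 3 each). In all reference pairs the shorter gene was the higher one in 47.4% ± 0.14 and 45.4% ± 0.42. Among pairs with both genes tested the shares were 48.7% ± 0.934 in ovary and 48.7% ± 0.138 in testis for nested genes, against 57.4% ± 0.227 and 54.3% ± 0.525 for reference pairs (SD, n = 3 each). These shares differed by relative span. At 1 to 10% the nested gene was higher in 44.3% in ovary and 42.8% in testis, against 55.98% and 54.1% of reference pairs. At 10 to 50% they were 52.2% and 57.7%, against 61.2% and 56.4%. At 50 to 90% they were 62.8% and 71.2%, against 53.5% and 52.2%. Above 90% they were 58.2% in both tissues (51 pairs), against 52.1% and 49.97%. At 1% or less they were 44.95% and 35.4%, against 40.9% and 30.3%, with only 44 reference pairs. Nested genes of up to 1500 bp exceeded their host least often, in 19.7% ± 3.33 of pairs in ovary and 27.3% ± 1.48 in testis, and short genes of reference pairs did so in 19.8% ± 0.751 and 18.9% ± 0.584 (SD, n = 3 each). Large gaps in level were common: among 3769 pairs in which 1 gene averaged at least 1 FPKM over the 6 libraries, the genes differed at least 10-fold in 40.1%, against 36.9% of reference pairs. Within classes of relative span the order was the reverse in all but the highest. The shares were 48.2% against 61.7% at 1% or less, 42.3% against 49.6% at 1 to 10%, 33.2% against 36.9% at 10 to 50% and 30.1% against 32.7% at 50 to 90%. Above 90% relative span it was 34.7% (25 of 72 pairs) against 30.3%, and the shorter gene was the higher one in 38 of the 72.

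A test of the pair itself, limma on the within-library difference between nested gene and host, asked whether the tissue difference of the nested gene departs from that of its host. It was fitted over nested-host and reference pairs together. Among 2509 nested-host pairs the fold changes differed with the nested gene shifted toward testis in 793 (31.6%) and toward ovary in 932 (37.1%). In reference pairs 72.2% passed, 29.6% with the shorter gene shifted toward testis and 42.6% toward ovary, and over all 12470 pairs 71.5% passed. The nested-host share of 68.8% was thus close to the background. The median size of the difference was 1.26 on the log2 scale in nested-host pairs and 1.44 in reference pairs. Of the 1410 pairs called in the same direction, 796 passed this test.

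The counts in each direction differed between classes of relative span, in part also in reference pairs. Where the nested gene covers at most 1% of its host, 101 passed toward testis (21.1%) and 232 toward ovary (48.4%), against 13 and 22 of the 44 reference pairs of that class. The median log2 fold changes were 1.19 for these nested genes and 1.80 for their hosts. Between 10% and 50% the counts were 273 (37.3%) and 241 (33.0%), against 27.5% and 45.2% of reference pairs. The difference from reference pairs was not tested. In hosts longer than 1000000 bp the counts were 163 (24.2%) and 317 (47.1%) of 673 pairs, with a median difference of -0.68. In all reference pairs the shares were 29.6% and 42.6%. These 673 pairs come from at most 31 hosts, so the fold of 1 host enters many pairs and the pairs are not independent.

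All 351 pairs called in opposite directions also passed the test of the pair. Both calls come from the same libraries, so this outcome was nearly fixed in advance and adds no support. In 230 of the 351 pairs the nested gene was higher in ovary and the host in testis, and in 121 the reverse. Among the reference pairs with opposite calls, 503 of 1699 had the shorter gene higher in testis. The share of opposite calls moved with scaling, from 19.9% of called pairs as deposited to 13.0% after rescaling to TPM, 25.8% after median ratio scaling and 39.7% after quantile normalization.

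The widest opposite pair lay on linkage group 19. The nested gene SCSFRI_TO_T_00043058 (1818165 to 1822194) measured 717, 1625 and 2026 FPKM in the ovaries and 3.85, 0.624 and 1.56 FPKM in the testes. Its host SCSFRI_TO_T_00043060 (1801092 to 1848322) measured 0.719, 0.455 and 0.344 FPKM in the ovaries and 16.6, 16 and 15.4 FPKM in the testes. The order of the 2 genes was thus inverted between the tissues, with no library overlapping in either gene. This pair and the 9 that follow were chosen for opposite calls and wide differences in fold. An inverted order was therefore likely from the choice, and the tests of these differences add no support. The log2 fold changes were -8.94 (SE 0.49) and 3.51 (SE 0.19), and their difference was -12.44 (limma, SE 0.56, adjusted p = 1.9e-06).

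On linkage group 13, SCSFRI_TO_T_00051350 (12964431 to 12969347) measured 172, 160 and 166 FPKM in the ovaries and 0.679, 0.185 and 0.142 FPKM in the testes. Its host SCSFRI_TO_T_00139039, 1596379 bp long with 37 genes inside its span, had 0.169 to 0.257 FPKM in the ovaries and 12.8, 20.5 and 17.1 FPKM in the testes. The folds differed by -10.83 (limma, SE 0.31, adjusted p = 6e-07). On linkage group 14, SCSFRI_TO_T_00139968 (23117322 to 23121138) measured 481, 483 and 527 FPKM in the ovaries and 1.96, 0.808 and 1.09 FPKM in the testes. Its host SCSFRI_TO_T_00140056 was low in both tissues, at 0.0553 to 0.0842 FPKM in the ovaries and 2.2 to 3.5 FPKM in the testes, and lost its call after quantile normalization (adjusted p from limma = 0.053). The ovary values of the nested gene varied little in both of these pairs.

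The remaining 2 pairs of this direction lay on linkage groups 16 and 20. SCSFRI_TO_T_00073470 (17786030 to 17787627) measured 271, 486 and 457 FPKM in the ovaries and 4.8, 2.87 and 3.43 FPKM in the testes, while its host SCSFRI_TO_T_00073635 had 0.534 to 1.18 and 9.78 to 12.4 FPKM. SCSFRI_TO_T_00055435 (9371063 to 9382716) measured 85.1, 278 and 219 FPKM in the ovaries and 0.129 to 0.618 FPKM in the testes. Its host SCSFRI_TO_T_00055108 had 4.62, 18.6 and 13.6 FPKM in the ovaries and 25, 27.1 and 22.3 FPKM in the testes, with no overlap (log2 fold change 1.13, SE 0.43, adjusted p from limma = 0.04). That host's call was lost when testis 1, testis 2 or testis 3 was left out, with a limma adjusted p of 0.096, 0.12 and 0.078, with no filter (0.057) and after quantile normalization (0.1).

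In the reverse direction the nested gene was higher in testis and the host in ovary. SCSFRI_TO_T_00081680 on linkage group 9 (23793728 to 23799702) measured 4.46, 7.86 and 6.6 FPKM in the ovaries and 76.4, 210 and 113 FPKM in the testes. Its host SCSFRI_TO_T_00081764 (23785623 to 23802346) measured 67.2, 97 and 84.3 FPKM in the ovaries and 2.63, 4.52 and 2.68 FPKM in the testes. The folds of 4.10 and -4.31 differed by 8.41 (limma, SE 0.25, adjusted p = 6e-07). Levels of the 2 genes in their higher tissue were alike in order of size, and both were above 1 FPKM in each library.

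SCSFRI_TO_T_00074030 on linkage group 15 (1480336 to 1482253) measured 0.0552, 0.202 and 0.0558 FPKM in the ovaries and 8.43, 17.4 and 18.5 FPKM in the testes, while its host SCSFRI_TO_T_00048549 had 117, 90.2 and 99.2 FPKM and 3.42, 3.17 and 4.21 FPKM. SCSFRI_TO_T_00054483 on linkage group 17 (6487215 to 6491350) measured 0.393, 0.424 and 0.909 FPKM in the ovaries and 50.6, 144 and 87.1 FPKM in the testes. Its host SCSFRI_TO_T_00054739, of which it covers 47.8%, had 34.8, 34.1 and 59.4 FPKM and 10.8, 10 and 7.77 FPKM. In these pairs too the gene that was higher changed with the tissue in all 6 libraries.

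SCSFRI_TO_T_00143770 on linkage group 12 (18719954 to 18729050) covers 62.2% of its host and rose less, with 9.23, 6.7 and 6.53 FPKM in the ovaries and 14.5, 30.3 and 21.3 FPKM in the testes (log2 fold change 1.40, SE 0.30, adjusted p from limma = 0.0025). It did not pass after median ratio scaling (limma adjusted p = 0.056) or quantile normalization (limma adjusted p = 0.26). Its host SCSFRI_TO_T_00144123 had 186, 370 and 344 FPKM in the ovaries and 2.38, 2.83 and 1.94 FPKM in the testes. The fifth pair lies in the abundant locus of linkage group 13. SCSFRI_TO_T_00038888 (18097403 to 18186967) was listed at 0 in ovaries 1 and 2 and had 0.0763 FPKM in ovary 3, against 80.2, 101 and 41.5 FPKM in the testes. Its host there is SCSFRI_TO_T_00039028, itself a nested gene, whose direction depends on the scaling as given above.

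**Figure D4:**
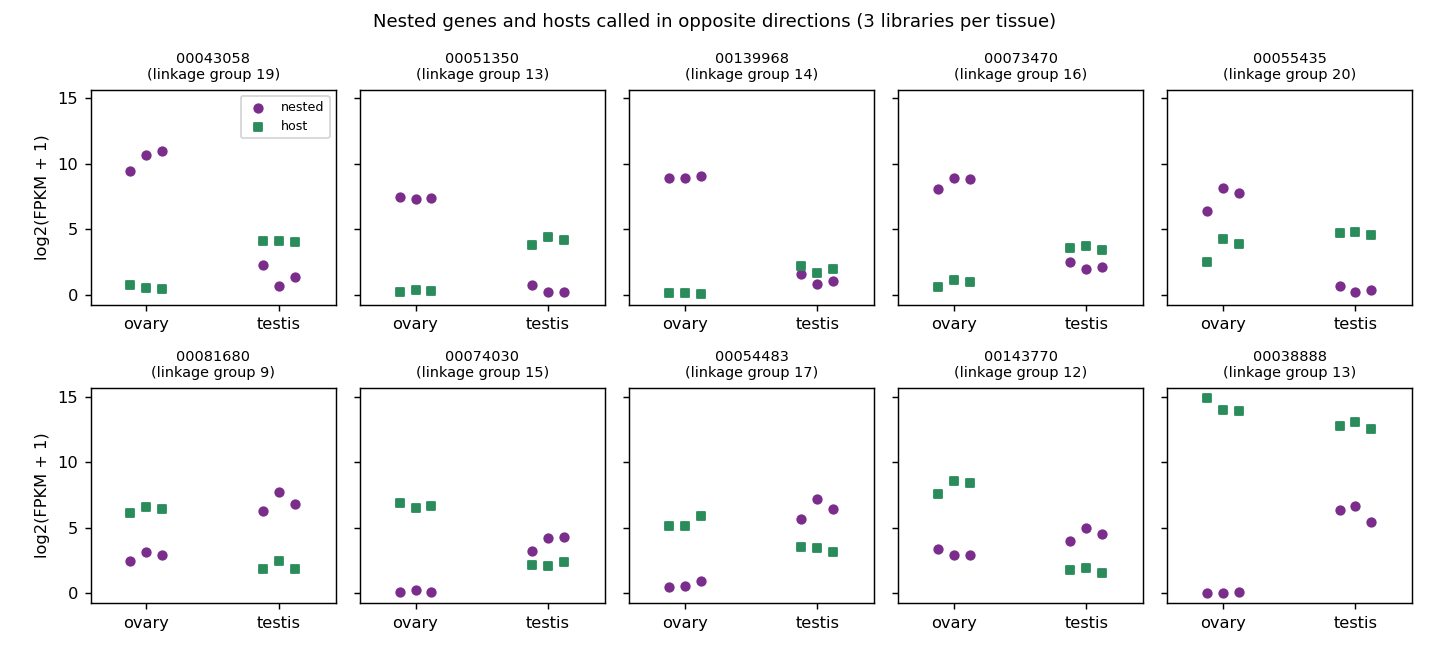
Log2(FPKM + 1) in each of 3 ovaries and 3 testes for the 5 pairs of each direction with the largest difference in fold change among pairs called in opposite directions, nested gene in purple circles and host in green squares. Panels are titled by the last digits of the nested gene's identifier. The top row shows nested genes higher in ovary, the bottom row nested genes higher in testis, and in 9 panels the higher gene changes with the tissue. Such changes follow largely from the choice of pairs.

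The hosts with the most nested genes held genes of both directions, as do all tested genes, of which testis was higher for 68.2% and ovary for 13.4%. The first, SCSFRI_TO_T_00028893 on linkage group 6 (28339776 to 30618750), measured 0.426, 0.83 and 0.938 FPKM in the ovaries and 4.31, 7.39 and 5.19 FPKM in the testes, a log2 fold change of 1.92 (SE 0.22) that fell to -0.03 after quantile normalization (limma adjusted p = 0.91). Of its 75 nested genes 62 were tested: testis was higher for 45 (72.6%), ovary for 9, and 8 did not pass, with log2 fold changes from -2.90 to 4.50.

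The next host, SCSFRI_TO_T_00134374 on linkage group 20 (13133712 to 14999718), measured 12.2, 11.8 and 9.57 FPKM in the ovaries and 17, 11.8 and 15.3 FPKM in the testes and did not pass (log2 fold change 0.36, SE 0.22, adjusted p from limma = 0.17). After rescaling to TPM it did (0.92, limma adjusted p = 0.012). Among its 73 nested genes 52 were tested, and testis was higher for 31 (59.6%) and ovary for 15, with folds from -3.39 to 6.07. SCSFRI_TO_T_00090515 on linkage group 8 (2588424 to 4539119) measured 1.36, 4.08 and 3.47 FPKM in the ovaries and 25.7, 32.6 and 29 FPKM in the testes. Of its 66 nested genes 49 were tested, with 30 (61.2%) higher in testis, 9 higher in ovary and a median fold of 1.11, against 2.99 for the host. In testis 11 of the 66 stood above the host, and in ovary 27.

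**Figure D5:**
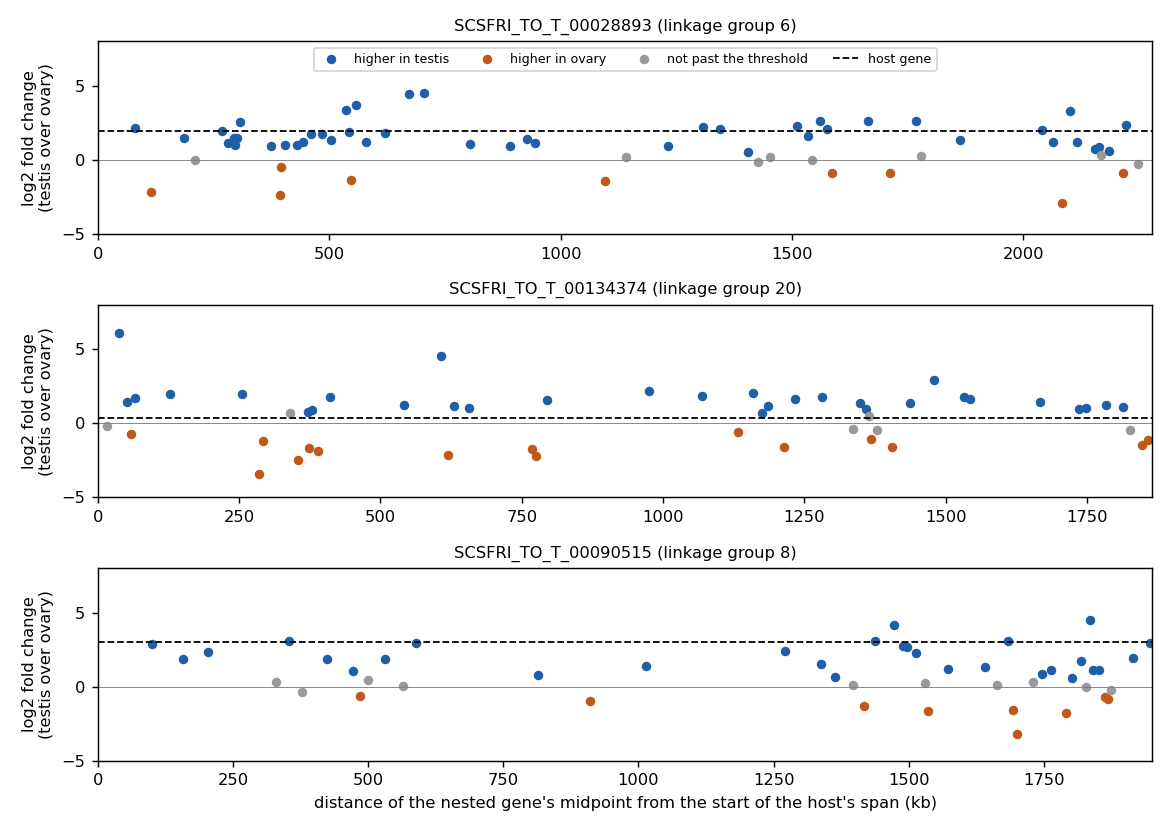
Log2 fold change (testis over ovary) of the tested nested genes of the 3 hosts that hold most of them, against the distance in kb of the gene's midpoint from the start of the host's span. Blue points passed higher in testis, orange points passed higher in ovary, grey points did not pass, and the dashed line is the host's own value. Genes of both directions lie along each host.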

How the data were processed

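RNA of 3 ovaries and 3 testes was extracted with Trizol and sequenced as Illumina libraries, per the labels' protocols. The authors deposited 1 table of FPKM values for 22062 genes, with a column for each library and no pooling. The submitters' processing notes list HISAT2 2.0.4 and StringTie 1.3.3b. Which genome build and annotation were used, and whether strand was, is not given in the sources used here. Columns left unmapped to a sample numbered 0. FPKM summed to 658899 to 796856 in ovaries and 485022 to 490967 in testes. Read depth is unknown, so no counting interval was computed.

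Spans were compared within each linkage group with Python 3.11.15 and pandas 2.3.3. The search was checked on simulated spans. Log2(FPKM + 1) was tested with limma 3.58.1 in R 4.3.3 (eBayes with trend, two-sided, tissue as the only term) where a gene reached 1 FPKM in 3 or more libraries. The same fit on differences within pairs used pairs with both genes tested. Adjustment (Benjamini-Hochberg) ran over all tested genes, or over nested-host and reference pairs together. On simulated data, 75% of genes and 52% of pairs changed by a log2 fold of 2 were recovered, and 34% and 1% of those changed by 1, over 17206 genes and 12470 pairs. Only 200 genes and 200 pairs were changed there, and the genes of a pair were drawn independently. In the data 81.6% of genes and 71.5% of pairs passed, so the adjustment is less strict. The simulated shares therefore do not give the recovery in the data. Genes share libraries and pairs share genes, so calls are not independent.

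Genes were named by rank: the 5 nested genes with the largest called fold change in each direction with no overlap of libraries, the 5 most abundant in each tissue, the 5 widest opposite pairs in each direction, the 3 hosts with most nested genes, the deepest chain of spans and the pair closest in length. Members, lists and rules were chosen with earlier results of these data known. Titles number the libraries 1 to 3 in both tissues, but the fish differ, so the main fit has no block. Randomly drawn pairs of matched size were not used. Classes of span and nearest non-overlapping genes took their place.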

Additional observations from a re-analysis of the deposited data

How the results depend on the processing

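Values as reported were 1949 and 443 nested genes higher in testis and ovary, 948 and 170 hosts, 1410 pairs called the same way, 351 opposite pairs, 793 and 932 pairs shifted to testis and ovary, and r = 0.2463 between folds. With no filter, 2183 pairs were called the same way, 1605 shifted to ovary and r was 0.2051. With a mean of at least 5 FPKM, fewer genes are tested: 912 nested genes and 372 hosts were higher in testis, 404 pairs went the same way and 174 opposite, 310 and 363 shifted to testis and ovary, and r was 0.3075. TPM gave 281 nested genes higher in ovary. Quantile normalization gave 1092 and 1051 nested genes and 461 and 533 hosts higher in testis and ovary, 790 pairs called the same way and r = 0.2112. It reversed SCSFRI_TO_T_00038882 (0.7318) and SCSFRI_TO_T_00039028 (0.6768), while SCSFRI_TO_T_00028893 fell to -0.0296 and lost its call (adjusted p from limma = 0.91). A pseudocount of 0.1 gave r = 0.2667. Without hosts of more than 5 nested genes, which removes genes, 952 and 235 nested genes were higher in testis and ovary, 710 pairs went the same way and 182 opposite, 453 and 420 shifted to testis and ovary, and r was 0.3319. With spans of at most 50% of the host r was 0.1928, with the longest gene as host 0.2244 and with no shared end 0.2328. The nested gene was the higher one in 40% of pairs in both tissues with the longest gene as host, in 42.2% in ovary with no shared end, and in testis in 40.5% with spans of at most 50% and 45.6% without crowded hosts. The median log2(FPKM + 1) of nested genes was 0.591 in ovary and 3.16 in testis as TPM, 1.73 and 1.63 after quantile normalization, 2.1 in testis after median ratio scaling and 2.42 in testis with no shared end. Where a cause is not named, the cause was not tested. Leaving out 1 library at a time gave 1829 to 2010 and 385 to 536 nested genes, 895 to 985 and 152 to 205 hosts, 1249 to 1472 same and 287 to 423 opposite pairs, 706 to 806 and 853 to 962 shifted pairs, and r of 0.241 to 0.250. Of 669 values of 48 named genes under the alternatives, 653 kept the side of the threshold, with direction kept where they passed. A further 10 lost the call, 3 gained it and 3 that had passed changed sign. Among the latter, SCSFRI_TO_T_00028893 no longer passed. Values that passed in neither fit could change sign: SCSFRI_TO_T_00134374 went from 0.3567 to -0.4961 after quantile normalization. Many of these genes were named for large called fold changes, so few lost calls follow from the choice. Leaving out models nested in 10 or more genes, chosen after seeing the data, removed no pair from the 2509 with both genes tested. The unchanged r of 0.2463 was therefore fixed in advance.

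With the replicate number as a block, 1928 and 423 nested genes and 938 and 167 hosts passed, with 1363 same and 333 opposite pairs and 767 and 915 shifted pairs. Across genes, departures of same-numbered libraries from their tissue means had r of 0.009, -0.001 and -0.059. Whether same-numbered libraries share a batch was not tested. Depth is unknown, and 3 fish per tissue limit the precision.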
